A study of Sus scrofa with 4 samples.

Results

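The genes described here are 10 members of the circadian clock: the core activators ARNTL (also called BMAL1), CLOCK and NPAS2, the core repressors PER1, PER2, PER3, CRY1 and CRY2, and the clock-driven transcription factors DBP and BHLHE40. They are 10 of 16303 named coding genes in the RefSeq table of the pig genome Sscrofa11.1, in which all 10 were found. A member's peaks are those that touch the gene or the 50 kb on either side of it. The mark is lactylation of lysine 12 of histone H4 (H4K12la), read in sow liver by chromatin immunoprecipitation with sequencing. Of the 4 samples, the low (normal) bile acid group and the high bile acid group each gave 1 library precipitated with the antibody and 1 input library. Both groups were female sows in late gestation, labelled hepatocytes. Animals per library, breed, age and the time of day of sampling are not given in the sources used here. With 1 precipitated library per group there is no replicate, and no difference between the groups was tested.

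The clock is a transcriptional feedback loop. ARNTL pairs with CLOCK, or with its close relative NPAS2, and the pair switches on the PER and CRY genes through E-box sequences. PER and CRY proteins gather in the cell and shut the pair off again. BHLHE40 competes for the same E-boxes, and DBP carries the rhythm to enzymes of drug, lipid and bile acid metabolism in the liver.

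The 2 deposited peak lists hold 28283 peaks (high) and 5735 peaks (low), so calls are more frequent in the high list over all genes. The fold of a peak is the authors' enrichment of its summit over local background, and their q is a p-value adjusted for multiple testing. A q under 0.05 was reached by 608 high-list and 13 low-list peaks, and q was 1 for 97.4% of low-list peaks. The lowest background pileup among the called peaks, which depends in part on library size, was 1.98 fragments in the high and 2.20 in the low library. Read counts were not used, so sequencing depth was not compared, and its part in the unlike list lengths was not tested. Peak lists do not measure expression. Of 10 hepatocyte markers, 7 had a high-list and 2 a low-list peak within 50 kb, and ALB and CYP2E1 had none. Over all named coding genes the shares were 85.6% and 41.4%. All 5 Kupffer and myeloid, all 5 stellate and fibroblast and all 5 cholangiocyte markers had a high-list peak there. So did 4 of 5 endothelial and 4 of 5 lymphocyte markers. A low-list peak lay near 1 lymphocyte marker and near 2 markers of each other list. The sample titles say liver and the label says hepatocytes, and whether whole tissue or isolated cells were used was not determined. In either, fewer cells carrying the mark and less mark per cell cannot be told apart.

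All 10 clock genes had a high-list peak in or near them and 7 had a low-list peak. Together the members held 30.7 high-list peaks per Mb of window (exact Poisson 95% interval 23.1 to 40.0) and 5.68 low-list peaks per Mb (2.73 to 10.5). The rates over all named coding genes were 18.8 and 3.49 per Mb, so the high-list interval lay above and the low-list interval spanned the rate. Of the 10 members, 7 (high) and 6 (low) were above the rate of genes on their own chromosome. ARNTL, CLOCK and NPAS2 each carried a peak in both livers that overlapped between the lists, within 1 kb of the gene's higher-coordinate end. No repressor, nor DBP or BHLHE40, had an overlapping pair anywhere in its window. The counts have to be read against all genes. A high-list peak lay inside or within 50 kb of 85.6% of named coding genes, and a low-list peak of 41.4%, so having a peak in this wide window sets the clock genes little apart. A peak of each list lay there for 38% of genes and for 7 of the 10 members. An overlapping pair was rarer. It was found in the window of 2.59% of genes, and within 1 kb of the same gene end for 0.331% (54 genes, the 3 activators among them). Among genes of 100 kb or more, as the activators are, the latter share was 0.471%. The difference between activators and repressors was not tested.

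**Figure D1:**
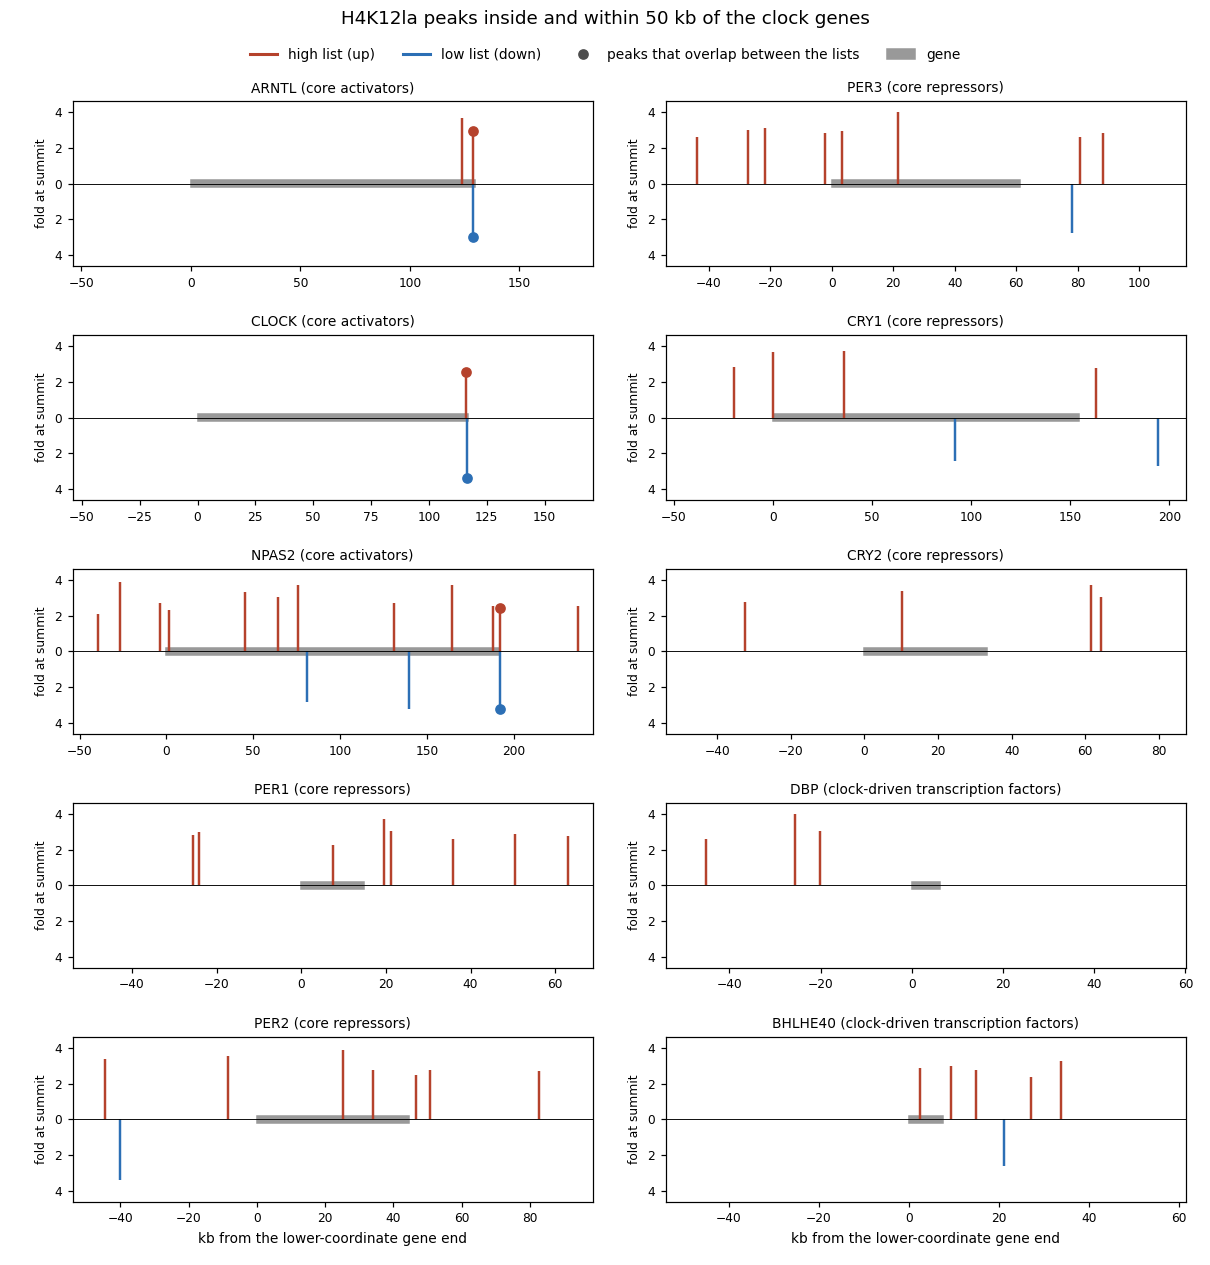
Peaks at the 10 clock genes, with the distance in kb from the lower-coordinate gene end on the x axis and the authors' fold at the summit on the y axis; bars up are high-list peaks, bars down low-list peaks, the grey box is the gene, and dots mark peaks that overlap between the lists. The dots appear at the right-hand end of ARNTL, CLOCK and NPAS2, and PER1, CRY2 and DBP have no bars pointing down.

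The core activators came first in the comparison. Their windows held 15 high-list and 5 low-list peaks over 0.738 Mb. ARNTL, the partner without which the loop stops, spans chromosome 2, 45895637 to 46025174. Its high-list peaks had folds of 3.68 (q 0.139) and 2.92 (q 0.232), and its low-list peak had a fold of 2.97 (q 1). All 3 had their summit inside the gene, 594 to 5796 bp from its higher-coordinate end. The peaks that overlapped span 46024389 to 46024791 in the high list and 46024213 to 46024563 in the low list. At the summit there were 13 fragments (6.92 to 22.2) and 9 (4.12 to 17.1), and the summits were 137 bp apart. The folds at this end were 2.92 and 2.97, but over unlike background: the expected pileup was 3.80 in the high and 2.00 in the low library. Both summits lay inside the gene, 594 and 731 bp from its end.

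CLOCK, the partner of ARNTL and itself an acetyltransferase, spans chromosome 8, 54793323 to 54910192. It had 1 peak in each list and no other within 50 kb. The high-list peak, 54909105 to 54909781, had a fold of 2.56 (q 0.5) on 7 fragments (2.81 to 14.4). The low-list peak, 54909372 to 54909836, had a fold of 3.39 (q 1) on 11 fragments (5.49 to 19.7). The value was thus higher in the low list, with intervals that overlap. The summits lay 769 and 560 bp inside the higher-coordinate end of the gene.

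NPAS2, which can stand in for CLOCK, spans chromosome 3, 53298805 to 53490375, and is the longest member at 191.6 kb. It had 12 high-list peaks, the most of any member, and 3 low-list peaks. High-list folds ran from 2.08 to 3.87 with a median of 2.71, and 7 of the 12 summits lay inside the gene. Among all named coding genes, 1.33% had 12 or more high-list peaks in their window. Per Mb of window the rate was 41.2 in the high list, which 14.8% of genes reached, and 10.3 in the low list, which 8.95% reached. The high-list interval began at 21.3 per Mb, below the 24.8 per Mb over genes of chromosome 3. The pair at the gene end spans 53490574 to 53490964 (high) and 53490555 to 53491017 (low). Its folds were 2.44 (q 0.33) on 13 fragments (6.92 to 22.2) and 3.24 (q 1) on 11 fragments (5.49 to 19.7). The summits were 46 bp apart and lay just outside the gene, 366 and 412 bp beyond its end. The other low-list peaks of NPAS2, inside the gene, had folds of 2.83 and 3.24, and their summits were 5163 and 8484 bp from the nearest high-list summit.

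The position shared by the activators was not used to choose them. The members were, however, chosen with earlier results of these data known. The gene table gives no strand, so whether these ends hold the start site or the end of the transcript was not determined. None of the 6 calls passed a q of 0.05, and each rests on 7 to 13 fragments. The pairs also depend on the length of the high list: when it was shortened to its 5735 peaks of smallest p, 0 pairs were left. At ARNTL and NPAS2 the local background of the high library was itself raised. The expected pileup there was 3.80 and 4.75 against a median of 2.27 over the high list, and it was 2.13 at CLOCK. In the low library it was 2.00, 2.30 and 2.15 at ARNTL, NPAS2 and CLOCK, against a median of 2.09. Without peaks at or above the 95th percentile of the expected pileup in their list, the pair at CLOCK was left, 1 of 3, and the share of all genes with such a pair was 0.264%. The peak at ARNTL lies on that percentile, tied with others, and with ties kept 2 of 3 pairs were left, beside 0.294% of all genes. The part of the local background in these calls was not tested.

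**Figure D2:**
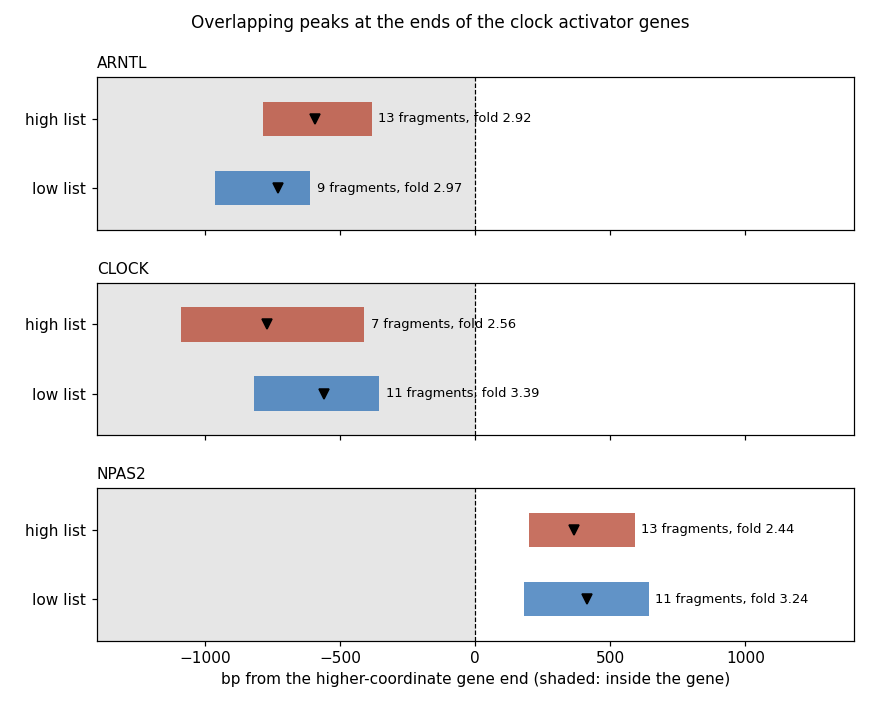
The overlapping peaks of the 3 activators, with bp from the higher-coordinate gene end on the x axis and a row for each list; bars span the peaks, triangles mark the summits, grey shading is the gene, and the fragments at the summit and the fold are printed beside each bar. ARNTL and CLOCK have both peaks inside the gene and NPAS2 has both outside, with summits 137, 209 and 46 bp apart.

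The core repressors held 31 high-list peaks over 0.808 Mb, a rate of 38.4 per Mb (26.1 to 54.5), and 4 low-list peaks, 4.95 per Mb (1.35 to 12.7). The activators had 20.3 per Mb (11.4 to 33.5) and 6.78 per Mb (2.20 to 15.8). Over all named coding genes the rates were 18.8 and 3.49 per Mb. The intervals of activators and repressors overlap in both lists. Of the 31 peaks, 8 had their summit inside a repressor gene, 13 inside a neighbouring gene and 10 between genes, whereas 10 of the 15 activator peaks lay inside their gene. The activators are longer, 117 to 192 kb against a median of 44.4 kb for the repressors, so a larger part of their windows is gene.

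PER1, a period gene that glucocorticoids induce quickly, spans chromosome 12, 53361863 to 53376723. It had 8 high-list peaks and no low-list peak. The rate of 69.6 peaks per Mb (30.1 to 137) was the highest of the members, and 2.91% of all genes reached it. Windows of genes on chromosome 12 as a whole held 32.2 per Mb. Only 1 of the 8 lay inside PER1, in the middle of the gene, with a fold of 2.24 (q 0.531) on 10 fragments over 3.92 expected. That was the lowest fold around PER1, and the strongest, 3.69 (q 0.0743), lay in the neighbour VAMP2, a vesicle fusion protein gene, 4756 bp beyond PER1. The window is crowded, with 6 other coding genes and 15 tRNA genes.

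PER2, the period gene whose loss disturbs rhythm most plainly in mice, spans chromosome 15, 137793419 to 137837854. Its 7 high-list folds ran from 2.50 to 3.90, and its single low-list peak had a fold of 3.37 (q 1). The strongest high-list peak, 137818646 to 137818956 inside the gene, had a fold of 3.90 on 14 fragments (7.65 to 23.5) over 2.85 expected. With a q of 0.0349 it was the one peak at a clock gene, of either list, that passed q under 0.05, and it ranked 451st by p in the high list. High-list peaks of that kind lay in or within 50 kb of 7.89% of all genes, so 1 of 10 members is close to the background. A second internal peak had a fold of 2.78 (q 0.381). The low-list peak lay 40081 bp outside PER2, in the phosphatase gene ILKAP, 4508 bp from a high-list summit of fold 3.36 in the same gene.

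PER3, the least essential of the period genes, spans chromosome 6, 68487634 to 68548718. It had 8 high-list peaks with folds of 2.60 to 3.98, and 1 low-list peak of fold 2.74 (q 1). The highest, at 68508919 to 68509267 inside the gene, had a fold of 3.98 (q 0.0735) on 11 fragments (5.49 to 19.7), and a second internal peak had 2.93 (q 0.33). The low-list peak lay between genes, 17160 bp outside PER3, and its summit was 2331 bp from that of a high-list peak of fold 2.60. The period genes had high-list rates of 48.5 to 69.6 per Mb with wide intervals, and BHLHE40 was close to them at 46.5. No period gene had a low-list peak inside it, and only 15.1% of all genes had one. Genes on the chromosomes of the period genes held 32.2 per Mb (PER1), 14.0 per Mb (PER2) and 24.5 per Mb (PER3), beside intervals that began at 30.1, 19.5 and 21.4.

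The cryptochromes, which close the loop by binding the activator pair, had fewer peaks. CRY1 spans chromosome 5, 13275265 to 13429566, and had 4 high-list folds of 2.78 to 3.69 and low-list folds of 2.45 and 2.71 (q 1 for both). One high-list peak lay on its lower-coordinate end, at 13275263 to 13275942, with a fold of 3.64 (q 0.0735) on 13 fragments (6.92 to 22.2). It was the single repressor peak within 1 kb of a gene end in either list. The nearest low-list summit was 81923 bp away. CRY2 spans chromosome 2, 16587101 to 16620380, and had 4 high-list folds of 2.79 to 3.69 and no low-list peak. Its internal peak had a fold of 3.39 (q 0.167), and the low-list summit nearest to any of its peaks was 394812 bp away. The rates were 15.7 (CRY1) and 30.01 per Mb (CRY2) in the high list, with intervals of 4.29 to 40.3 and 8.18 to 76.8.

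**Figure D3:**
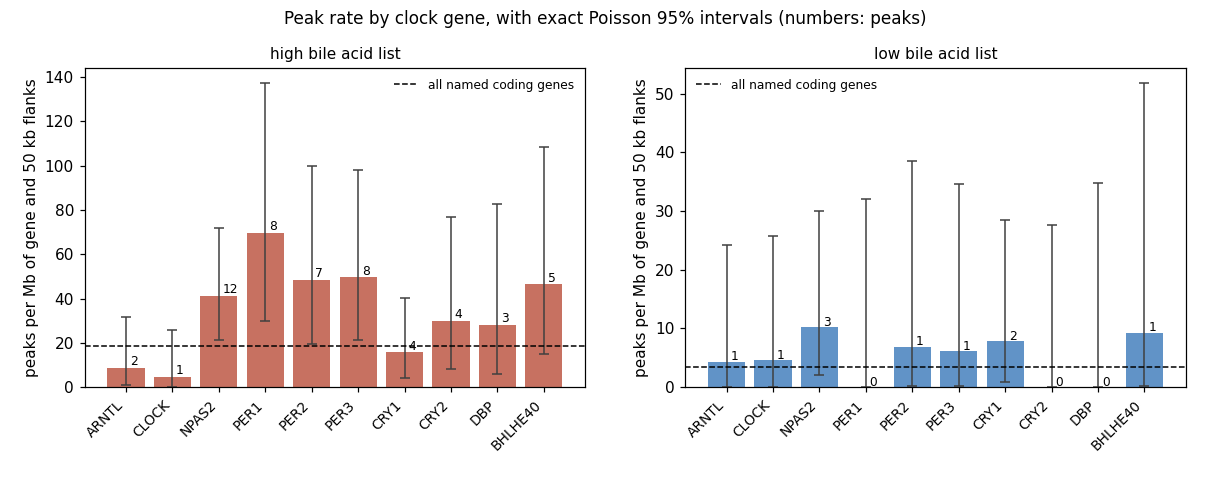
Peaks per Mb of gene and flanks for each clock gene in the high list (left) and the low list (right), with exact Poisson 95% intervals for counting error, the number of peaks beside each bar, and a dashed line at the rate over all named coding genes (18.8 and 3.49). In the high list the interval lies above the line for NPAS2 and the 3 period genes, and in the low list every interval with a peak spans the line. Against the genes of its own chromosome the interval lies above for PER2.

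The clock-driven factors differed from each other. DBP, a leucine zipper factor whose liver transcript swings more over the day than most, spans chromosome 6, 53986955 to 53993044. No peak of either list lay inside the gene. Its 3 high-list peaks, of fold 2.60, 3.98 and 3.02, lay on its lower-coordinate side in SULT2B1, a sterol sulfotransferase gene, and in FAM83E. The nearest of them was 20224 bp away. BHLHE40, also known as DEC1, spans chromosome 13, 61526121 to 61533686. It had 5 high-list peaks on folds of 2.37 to 3.28 and 1 low-list peak of 2.60 (q 1). The high-list peak inside it had a fold of 2.86 (q 0.326) on 10 fragments, and the others, with the low-list peak, all lay on its higher-coordinate side, between genes. No other coding gene lies in the window of BHLHE40.

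Gene ends and gene interiors gave narrower counts. Within 1 kb of either gene end, 4 of 10 members had a high-list peak (ARNTL, CLOCK, NPAS2 and CRY1), against 18.4% of all genes. In the low list 3 of 10 had one (ARNTL, CLOCK and NPAS2), against 3.58%. A peak of each list stood there for 0.883% of genes and for the same 3 members. PER2, PER3 and BHLHE40 had high-list peaks between 1 and 3 kb from an end, and with a 3 kb window the high-list count was 7. The share of all genes with the 3 kb window was not computed, and the 18.4% does not apply to it. High-list peaks inside the gene were found in 9 of 10 members, all but DBP, and low-list peaks inside in ARNTL, CLOCK, NPAS2 and CRY1. The shares over all genes were 45.3% and 15.1%. Those 4 members are the ones of 100 kb or more, and among all genes of that length the shares were 78.7% and 41.2%. The outermost peaks counted were a high-list peak in AURKB, 48200 bp from PER1 (fold 2.75), and one 45578 bp from NPAS2 (fold 2.51). The nearest left out were one of fold 3.14 in TRAF3IP1, 52586 bp from PER2, and one of fold 2.86 in TBC1D8, 52745 bp from NPAS2.

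Whether a call missing from one list marks a difference was examined through the fragments at each summit. For every peak, the smallest fragment number that would have passed the caller's limit in the other library, over the same expected pileup, was computed. That number fell inside the 95% interval of the observed fragments for all 54 high-list and all 10 low-list peaks. With 7 to 14 fragments per call the intervals are wide, so this comparison could hardly have come out otherwise. Both counts include the 3 pairs called in both lists. At PER2, the strongest, 14 fragments (7.65 to 23.5) stood against a limit of 8 in the low library, and at the CRY1 end 13 (6.92 to 22.2) against 8. These limits borrow the local background of the library that made the call, which can differ from that of the other. At ARNTL and NPAS2 the borrowed limits were 11 and 12, yet the low list held calls there on 9 and 11 fragments. With the median expected pileup of the low list, 2.09, the low library's limit was 7, and 1 high-list peak without an overlap, that of PER2, lay clear of it. The fragments of the low library at high-list positions were not part of the lists, so the missing calls, those at PER1, CRY2 and DBP included, leave the difference between the livers unknown.

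**Figure D4:**
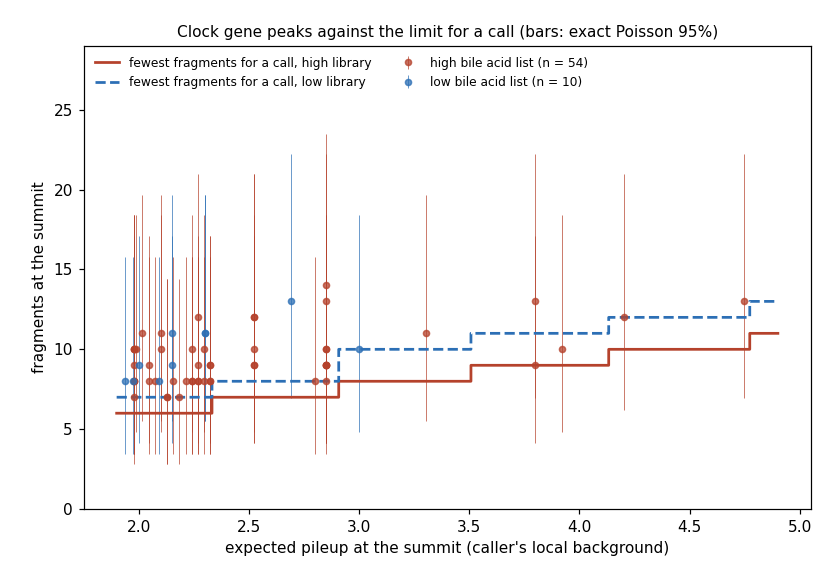
Fragments at the summit against the expected pileup for the 54 high-list and 10 low-list peaks at clock genes, with exact Poisson 95% intervals; the step lines give the fewest fragments for a call in each library. The points lie between 7 and 14 fragments, and every interval reaches across the line of the other library at the same expected pileup. Points with the same values coincide.

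Further clock genes were counted from 3 lists with 39 genes, of which 36 were found in the annotation. A high-list peak lay in or within 50 kb of 30 of the 36 and a low-list peak of 21, beside the 85.6% and 41.4% of all genes. None of the 36 had an overlapping pair of peaks in its window, beside 2.59% of all genes. Among 12 further transcription factors, 11 had a high-list and 7 a low-list peak. RORB, a nuclear receptor best known from brain and retina, had the highest fold in or within 1 kb of the gene, 4.03 (q 0.0735). RORA, which drives ARNTL in liver, had 3.41 (q 0.139) and a low-list peak of 2.29 (q 1), NOCT, a gene of rhythmic expression in liver, 3.36, TEF and HLF, the relatives of DBP, 3.17 and 3.03, and NR1D1, which encodes the ARNTL repressor REV-ERB alpha, 3.16 (q 0.214). NFIL3, which opposes DBP at the same sites, went the other way in its calls. It had no high-list and 3 low-list peaks in its window, with a fold of 2.83 (q 1) at the gene. ARNTL2, the paralogue of ARNTL, had 3 high-list peaks and no low-list peak.

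Among 13 kinases and ubiquitin ligases that set the stability of PER and CRY, 11 had a high-list and 7 a low-list peak. These counts are for the 50 kb window, where the shares over all genes were 85.6% and 41.4%. BTRC, which marks PER for destruction, had a fold of 4.64 (q 0.0106) in the high list and no low-list peak in its window. Its relative FBXW11 had no high-list peak and a low-list fold of 4.23 (q 0.598). CUL4A had a high-list fold of 3.36, SKP1 of 3.28, CSNK1D, the main PER kinase, of 3.03 and CSNK2A1 of 2.96. CUL1 had folds of 2.70 (high) and 2.60 (low). PRKAA1, a subunit of the AMP-activated kinase, had none in either list.

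Among 11 chromatin cofactors of the clock, 8 had a high-list and 7 a low-list peak in the window. The shares over all genes were 85.6% and 41.4%. NCOR1, the corepressor that REV-ERB recruits, had the highest fold in or within 1 kb of any of the 36 genes, 5.53 (q 8.75e-05) in the high list, and a low-list peak of 3.23 (q 1). CREBBP had folds of 3.70 (high) and 2.77 (low), PPARGC1A 3.65 and 3.56, and KDM5A 3.25 and 3.34. HDAC3, the deacetylase partner of NCOR1, had 3.09 and WDR5 2.84 in the high list. SIRT1 had a low-list peak in its window and no high-list peak, and EP300 and SFPQ had none in either list.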

How the data were processed

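Peaks were analysed from 2 deposited narrow-peak lists, 1 for each precipitated library, called per library with no pooling. Samples were grouped by their titles. Reads were handled with bcl2fastq 2.17, Trimmomatic 0.33, Bowtie 1.1.2 and, for peaks, MACS2 2.1.0, per the submitters' processing notes, which name the builds hg38 and Sscrofa11.1. The chromosome names are those of the pig, so Sscrofa11.1 positions were used. Each deposited peak has a fold, which is a ratio at the summit, its p-value and its q-value, the last pair as −log10. The deposited score repeats the p-value and played no part. The sources used here do not give a cutoff, and p reached 0.00989 at most in both lists.

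Fragments and expected pileup at each summit were solved from fold and p, with whole numbers for 100% of peaks within 0.002 in −log10 p. The low library's pileup had been multiplied by 0.881, and the caller's limit was taken as a p of 0.01. The solution and the counting were tested on simulated data. Intervals are exact Poisson 95% intervals and cover counting error only, since amplified reads without molecular identifiers are not independent molecules. Peaks were assigned with any overlap of 1 bp, gene ends with a window of 1 kb on either side, and pairs had to lie at the same end. "Inside" in counts of peaks goes by the summit. RefSeq gene positions on Sscrofa11.1 were used, with no strand, exons or sequence. Of genes outside the members, those named have a peak in or within 1 kb of the gene, up to 6 per list by fold, or have peaks in both lists; others were named after their values were seen, and 1 gene is not reported here. No comparison between groups has a p-value. The members and lists were chosen with earlier results of these data known. Scripts ran in Python 3.11.15 with scipy 1.17.1.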

Additional observations from a re-analysis of the deposited data

How the results depend on the processing

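Results were recomputed under stricter thresholds, other windows, other overlap rules and a shortened high list. No paired analysis was possible because the groups have 1 precipitated library each. Leaving out peaks over high input, the limit from the low list's median and placing gene-end peaks by summit were added once the data had been seen. At q under 0.05, 1 member kept a high-list peak (1 peak) and 0 a low-list peak (0 peaks). At that q, 0 gene ends in either list and 0 overlapping pairs were left, and 6 of the 36 other clock genes had a peak. High-list peaks of that kind lay in or within 50 kb of 7.89% of all genes. At a fold of 4 or more, the members had 0 peaks in either list, with 0 gene ends and 0 pairs, and 8 other clock genes had a peak. The share of all genes at that fold was not computed. With the high list shortened to 5735 peaks, 14 high-list peaks, 1 gene end (CRY1) and 0 pairs remained. With a 10 kb window there were 30 high-list and 6 low-list peaks, the latter at 4 members. The share of all genes with a peak in the 10 kb window was not computed. With a 3 kb gene-end window 7 members had a high-list gene-end peak, and the share of all genes for that window was not computed. Without peaks over high input 2 members had a high-list peak within 1 kb of a gene end and 1 pair was left (3 and 2 with ties kept). Those settings shorten the lists or change the window by construction. The overlapping pairs at ARNTL, CLOCK and NPAS2 were all found with 10 kb and 100 kb windows, and 2 met a reciprocal overlap of 50%. With the median expected pileup of the low list in place of the borrowed one, 1 high-list peak, at PER2, was clear of the low library's limit, against 0. Every call at the members rests on 7 to 14 fragments at its summit, so its counting interval is wide.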

Other observations

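Of the 54 high-list peaks around the clock genes, 19 had their summit inside a clock gene, 19 inside another gene and 16 between genes. Of the 10 low-list peaks, 5 lay inside a clock gene, 2 in another gene and 3 between genes. Several of the stronger peaks of the windows belonged to neighbours. TBC1D8, next to NPAS2, held 2 high-list peaks, of fold 3.87 (q 0.0735) and 2.08 (q 0.711), the latter the lowest of the 54, and RPL31, a ribosomal protein gene between them, one of 2.71. CAMTA1, a transcription activator gene beside PER3, held 3, with folds of 2.60, 3.01 and 3.12. HES7, a repressor of the segmentation clock of the embryo, lies next to PER1 and held 2, with folds of 2.84 and 2.96. AURKB, a mitotic kinase gene on the other side of PER1, also held 2, with folds of 2.86 and 2.75. SULT2B1, next to DBP, held the second-highest fold of all 54, 3.98 (q 0.0548). These neighbours were named after their values were seen. None of their peaks overlapped a low-list peak, and over the whole high list 0.732% of peaks did.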
